A study of Mus musculus with 8 samples.

Results

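The genes described here encode the working parts of the lysosome and of autophagy. They comprise 38 listed genes, and a gene entered when the value table held a row annotated with its symbol alone. For a gene with several rows, the brightest row on average was kept. In this way 37 of the 38 genes were measured, out of 19938 genes in all, and Optn was not analysed here. The measured genes fall into 12 lysosomal hydrolases and their activators, 6 lysosomal membrane and transport proteins, 2 transcription factors, 5 autophagy receptors and mitophagy proteins, 4 members of the ATG8 family and 8 genes of the core autophagy machinery.

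Lysosomes are acidic compartments in which hydrolases break down proteins, lipids and glycogen. In autophagy a double membrane closes around cargo and fuses with the lysosome. Receptor proteins tie the cargo to small ATG8 proteins that are anchored in that membrane. Cardiomyocytes, the contracting cells of the heart, renew mitochondria and long-lived proteins in this way, and fasting raises the process.

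RNA was hybridised to Affymetrix arrays, 1 array a heart, for 4 hearts labelled MHC-Plin5 and 4 hearts labelled control, all from male mice aged 12 weeks on a c57/bl background, with fasting named as the source of every heart. The MHC-Plin5 mice overexpress perilipin 5, a coat protein of lipid droplets, in cardiomyocytes under a myosin heavy chain promoter. The sources used here do not give the number of founder lines, the length of the fast or the exact genotype of the controls. The question put to the genes is which of their transcripts stand at another level when cardiomyocytes carry extra perilipin 5.

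Plin5 stood at log2 values of 12.17, 12.69, 12.63 and 12.08 in MHC-Plin5 hearts 1 to 4, against 8.92, 8.87, 9.04 and 8.58 in control hearts 1 to 4. The groups did not overlap (log2 difference 3.54, SE 0.16, exact two-sided permutation p = 0.0286, the smallest that 4 against 4 hearts allow), which fits the labels. The rows do not tell transgenic from endogenous Plin5. Array medians lay between 5.99 and 6.04 in 6 hearts and higher in MHC-Plin5 4, at 6.18, and control 2, at 6.24. The cardiomyocyte transcript Myh6 was read at 12.98 to 13.46 in MHC-Plin5 hearts and at 13.37 to 13.44 in control hearts.

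Of the 37 measured genes, 7 were higher in MHC-Plin5 hearts and 0 lower, the threshold being a limma adjusted p under 0.05 (Benjamini-Hochberg over all 19938 genes). The 7 are Ctsk, Ctsl, Ctsz, Ctsd and Hexa among the hydrolases, the receptor Sqstm1 and the ATG8 gene Gabarapl1. They make up 18.9% of the measured genes, while 3.25% of all genes were called, 2.08% higher and 1.17% lower. At an unadjusted limma p under 0.05, 13 of the 37 were higher and 3 lower, while 8.69% of all genes were higher and 7.86% lower. In 12 of the 37 (32.4%) the 4 MHC-Plin5 hearts did not overlap the 4 control hearts, each time with MHC-Plin5 above, while the groups did not overlap in 11.2% of all genes. The median log2 difference, MHC-Plin5 minus control, was 0.12 over the 37 genes and -0.03 over all genes, and 28 of the 37 lay above 0 (75.7%, against 42.5% of all genes).

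**Figure D1:**
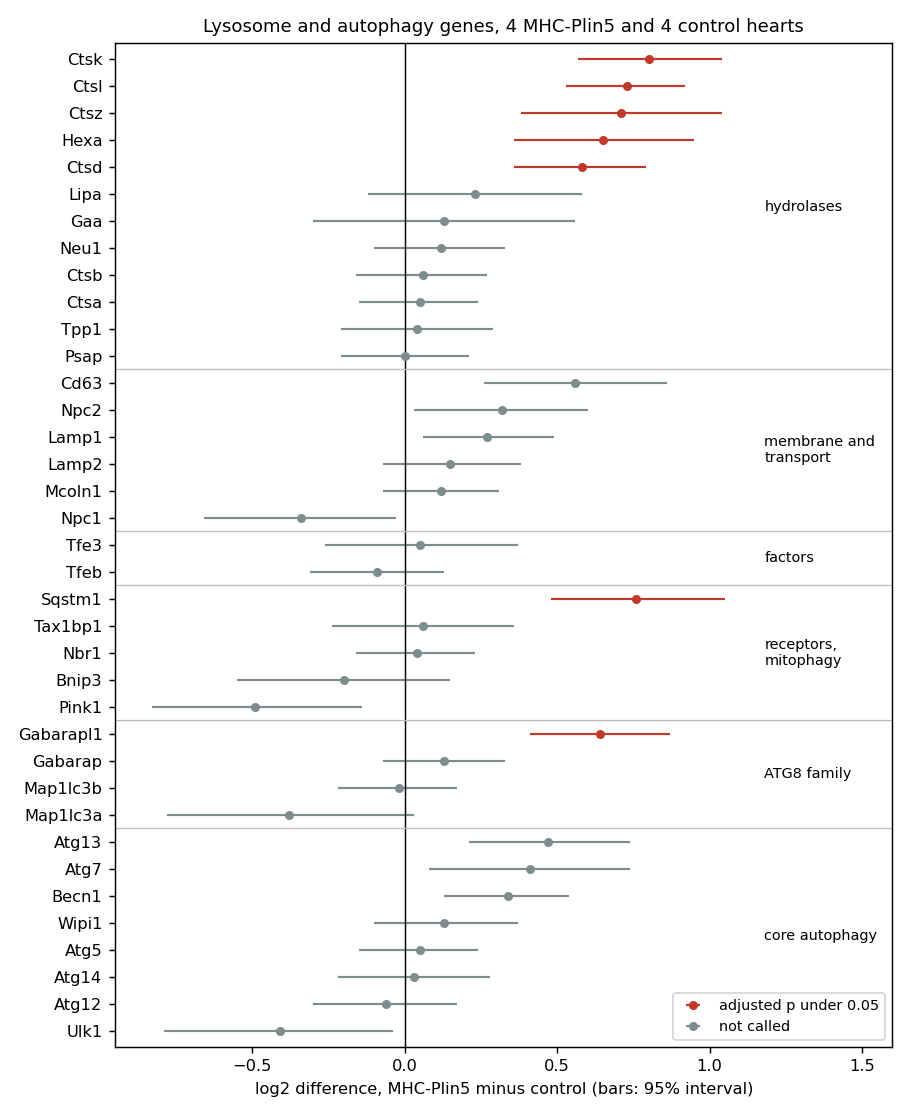
Log2 difference, MHC-Plin5 minus control, of the 37 measured genes (horizontal axis) by class, with the 95% interval from limma as bars (n = 4 hearts per group). The 7 called genes, in red, are 5 hydrolases, Sqstm1 and Gabarapl1, while the grey genes were not called and include 3 with intervals wholly below 0, Npc1, Pink1 and Ulk1.

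The hydrolases held most of the called genes, 5 of 12. Ctsk, a cysteine protease known for cleaving collagen, had log2 values of 6.83, 6.88, 7.07 and 7.05 in MHC-Plin5 hearts 1 to 4, against 6.19, 5.95, 6.31 and 6.17 in control hearts 1 to 4. Every MHC-Plin5 heart lay above every control heart, and the gene was 1.74-fold higher (log2 difference 0.80, SE 0.11, limma adjusted p = 0.00279). Ctsl, a cysteine endopeptidase that degrades proteins delivered to the lysosome, stood at 11.41, 11.49, 11.40 and 11.38 in MHC-Plin5 hearts and at 10.72, 10.80, 10.61 and 10.63 in control hearts. Both groups were narrow, with an SD of 0.05 in MHC-Plin5 hearts and 0.09 in control hearts (n = 4 each), and the gene was 1.66-fold higher (0.73, SE 0.09, limma adjusted p = 0.00181). In whole hearts, a change in RNA per cell and a change in the number of cells of one type cannot be told apart.

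Ctsd, the main aspartic protease of the lysosome, had values of 12.87, 12.95, 12.94 and 13.08 in MHC-Plin5 hearts, against 12.39, 12.23, 12.51 and 12.41 in control hearts. The groups were 0.36 apart at their nearest hearts, and the gene was 1.49-fold higher (log2 difference 0.58, SE 0.10, limma adjusted p = 0.0108). Ctsz, a cysteine carboxypeptidase, had values of 10.07, 10.38, 10.69 and 10.18 in MHC-Plin5 hearts, against 9.39, 9.81, 9.50 and 9.78 in control hearts. It spread more widely within each group than the other called proteases (SD 0.27 in MHC-Plin5 and 0.21 in control hearts, n = 4 each). It was 1.64-fold higher (0.71, SE 0.15, limma adjusted p = 0.0294).

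Hexa, the alpha subunit of a beta-hexosaminidase that degrades gangliosides, had values of 10.13, 10.36, 10.58 and 10.56 in MHC-Plin5 hearts, against 9.46, 9.90, 9.87 and 9.78 in control hearts. The groups did not overlap, control 1 was the lowest heart, and the gene was 1.57-fold higher (0.65, SE 0.13, limma adjusted p = 0.0262). The calls of Ctsz and Hexa lay near the threshold: each ended when 1 of MHC-Plin5 hearts 2 and 3 or control hearts 1, 3 and 4 was left out, at adjusted p values of up to 0.0993 for Ctsz and 0.082 for Hexa. With 1 heart left out the differences were 0.59 to 0.80 for Ctsz and 0.56 to 0.75 for Hexa. Ctsk, Ctsl, Ctsd, Sqstm1 and Gabarapl1 were called without each of the 8 hearts in turn.

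**Figure D2:**
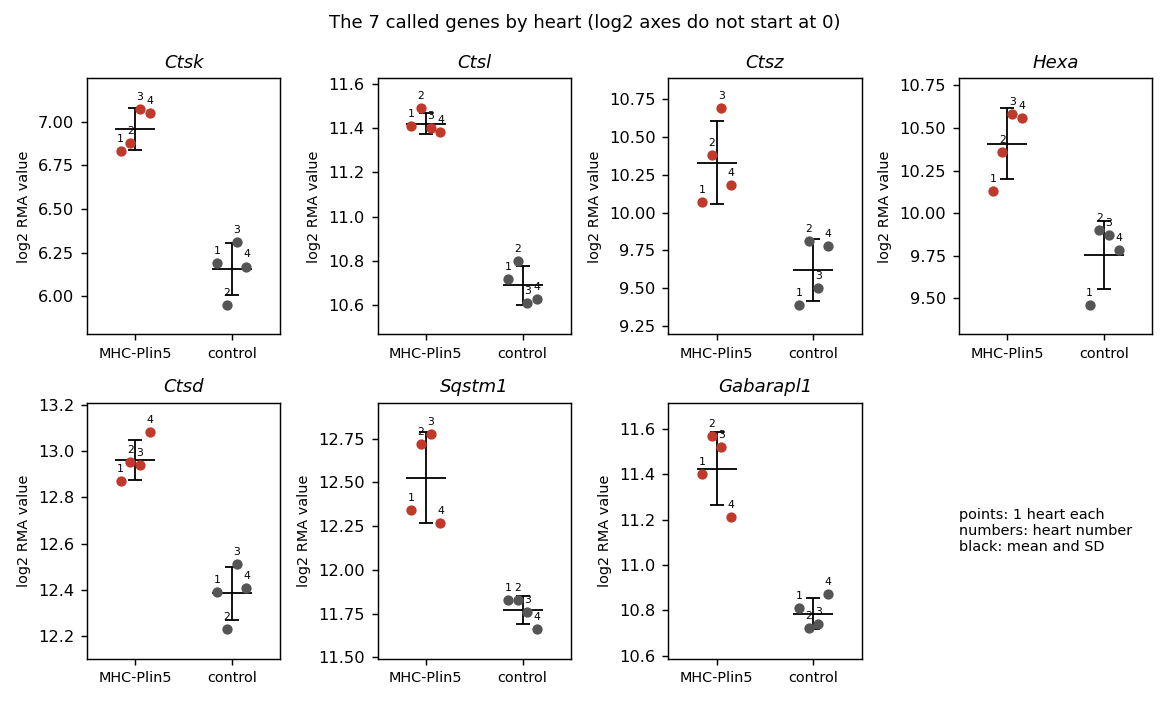
Log2 RMA values (vertical axes, which do not start at 0) of the 7 called genes in each heart, MHC-Plin5 left and control right, with the heart number beside each point and the mean and SD in black. In every panel the lowest MHC-Plin5 heart lies above the highest control heart, by 0.23 in Hexa to 0.58 in Ctsl.

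The remaining 7 hydrolases and activators were not called. Lipa, the acid lipase that splits cholesteryl esters and triglycerides inside lysosomes, had values of 9.66, 9.57, 10.20 and 9.48 in MHC-Plin5 hearts, against 9.48, 9.70, 9.54 and 9.25 in control hearts. MHC-Plin5 3 stood above the other hearts, which overlapped, and the log2 difference was 0.23 (95% interval -0.12 to 0.58, limma adjusted p = 0.523). Gaa, the glucosidase that degrades glycogen, differed by 0.13 with a wide interval of -0.30 to 0.56. Neu1, a sialidase, differed by 0.12, and Ctsb, a further cysteine protease, by 0.06. Ctsa, a carboxypeptidase that also shields Neu1 from breakdown, differed by 0.05, and Tpp1, which removes peptides from protein ends, by 0.04. Psap, the precursor of the saposins that help degrade sphingolipids, had a mean of 12.91 in both groups, with an interval of -0.21 to 0.21 for the difference. For Ctsb and Ctsa the intervals, -0.16 to 0.27 and -0.15 to 0.24, end below the log2 differences of all 5 called hydrolases.

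The factors TFEB and TFE3, which switch on lysosomal genes, bind a short sequence called the E-box (CACGTG). The promoter windows of RefSeq (build GRCm38.p6, 250 bases before to 50 bases after a start site) were searched for it on both strands. They were also searched for the antioxidant response element bound by NRF2 (TGACNNNGC), a FOXO site (TGTTTAC) and the C/EBP-ATF response element (TGATGNAA). The table gave 40 windows for 33 of the 38 listed genes. The E-box was in 10 of these 40 windows (25%), against 7.15% of all 32851 windows in the table. The windows of the listed genes had a median GC content of 57% and 15 CpG pairs, against 52.7% and 7 over all windows. The part of base composition in the share of any of these motifs was not tested. The antioxidant response element was in 20% of the 40 windows, against 12.4% of all windows. The FOXO site was in 0 of the 40 windows (0%, against 3.65%) and the C/EBP-ATF element in 1 (2.5%, against 3.97%). These counts are too small to read as lower shares.

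Among the 7 called genes, the windows of Ctsd, Ctsl, Hexa and Ctsz held at least 1 match, and those of Ctsk, Sqstm1 and Gabarapl1 held none. The 4 windows with a match are given 5′ to 3′ along the gene, with the matches in capitals, to show where the matches lie. That of Ctsd has E-boxes whose first bases lie at -245 and -98 relative to the start site, and a pair of antioxidant response elements between the second E-box and the start, and that of Ctsl an E-box and a C/EBP-ATF element on the opposite strand. Hexa and Ctsz have 1 antioxidant response element each.
Ctsd, chr7:142387778-142388077, minus strand: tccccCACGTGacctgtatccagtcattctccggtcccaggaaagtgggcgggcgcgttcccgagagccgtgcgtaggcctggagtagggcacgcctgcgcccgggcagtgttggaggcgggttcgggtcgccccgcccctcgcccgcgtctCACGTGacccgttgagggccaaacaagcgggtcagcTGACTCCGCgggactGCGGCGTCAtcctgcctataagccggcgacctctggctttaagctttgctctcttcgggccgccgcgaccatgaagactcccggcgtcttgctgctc
Ctsl, chr13:64370471-64370770, minus strand: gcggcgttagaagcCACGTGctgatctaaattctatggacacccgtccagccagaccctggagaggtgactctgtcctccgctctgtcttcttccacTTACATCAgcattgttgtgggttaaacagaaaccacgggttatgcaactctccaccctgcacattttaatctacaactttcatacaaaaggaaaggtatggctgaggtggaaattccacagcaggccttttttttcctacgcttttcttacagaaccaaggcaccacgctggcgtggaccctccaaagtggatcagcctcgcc
Hexa, chr9:59539290-59539589, plus strand: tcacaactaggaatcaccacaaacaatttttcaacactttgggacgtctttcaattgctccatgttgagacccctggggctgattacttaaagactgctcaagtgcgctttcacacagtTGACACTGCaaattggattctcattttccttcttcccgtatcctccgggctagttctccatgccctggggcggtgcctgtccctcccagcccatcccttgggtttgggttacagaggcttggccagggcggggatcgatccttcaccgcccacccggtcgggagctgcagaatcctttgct
Ctsz, chr2:174438990-174439289, minus strand: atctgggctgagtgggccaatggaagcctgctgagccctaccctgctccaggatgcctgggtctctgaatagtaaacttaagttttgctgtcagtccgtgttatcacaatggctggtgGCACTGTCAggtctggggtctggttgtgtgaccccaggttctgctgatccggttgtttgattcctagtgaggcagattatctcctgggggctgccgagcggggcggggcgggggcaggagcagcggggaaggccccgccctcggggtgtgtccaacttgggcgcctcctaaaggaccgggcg
Of the 7 windows of called genes, 2 held the E-box (28.6%) and 3 the antioxidant response element (42.9%), against 7.15% and 12.4% of all windows. With only 7 windows, nothing is drawn from these shares. The C/EBP-ATF element was in 1 of the 40 windows, that of Ctsl. Neither the E-box nor the antioxidant response element marked the called genes alone. The E-box was also in the windows of Lamp1, Mcoln1, Ctsa, Gaa, Atg5, Atg7, Atg14 and Bnip3, none of which was called. The window of Lamp1 held it 4 times. The antioxidant response element was also in the windows of Atg13, Map1lc3b, Psap, Tax1bp1 and Tpp1, which were not called either. A match is a run of letters and says nothing of binding.

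Among the 6 membrane and transport proteins 0 were called by limma, while 3 were higher and 1 lower at an unadjusted p under 0.05. Cd63, a tetraspanin of late endosomes and lysosomes, had values of 11.00, 11.53, 11.21 and 11.02 in MHC-Plin5 hearts, against 10.48, 10.88, 10.53 and 10.62 in control hearts. The groups did not overlap, and the gene lay just past the threshold (log2 difference 0.56, SE 0.14, limma adjusted p = 0.0522). Lamp1, an abundant glycoprotein of the lysosomal membrane, had values of 11.65, 11.75, 11.87 and 11.86 in MHC-Plin5 hearts, against 11.38, 11.49, 11.58 and 11.58 in control hearts. Its groups were 0.07 apart at their nearest hearts and it was not called (0.27, SE 0.10, limma adjusted p = 0.167). Mcoln1, a cation channel that releases calcium from lysosomes, had values of 9.57, 9.62, 9.57 and 9.52 in MHC-Plin5 hearts, against 9.47, 9.51, 9.46 and 9.35 in control hearts. These groups were 0.01 apart, and the difference of 0.12 was not called (SE 0.09, limma adjusted p = 0.54).

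Npc1 and Npc2 pass cholesterol out of the lysosome one after the other. Their mean differences had opposite signs, but in both the groups overlapped and neither was called. Npc1, the membrane protein of the pair, had values of 9.26, 9.27, 9.23 and 9.79 in MHC-Plin5 hearts, against 9.94, 9.78, 9.68 and 9.52 in control hearts. MHC-Plin5 4 stood with the controls and the other MHC-Plin5 hearts below all of them, for a log2 difference of -0.34 (SE 0.14, limma adjusted p = 0.259). Without MHC-Plin5 4 the difference was -0.48 and was called, in a fit that called 1174 of all genes in place of 648. Npc2, its soluble partner, differed by 0.32 (SE 0.13, limma adjusted p = 0.243), with MHC-Plin5 1 and 2, at 8.26 and 8.19, below control 2, at 8.33. Lamp2, whose loss in people causes a cardiomyopathy with stalled autophagy, differed by 0.15 (95% interval -0.07 to 0.38).

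Neither lysosomal transcription factor was called, and at an unadjusted limma p under 0.05 there were also 0. Tfeb had values of 8.51, 8.62, 8.44 and 8.46 in MHC-Plin5 hearts, against 8.53, 8.78, 8.61 and 8.47 in control hearts. The groups overlapped almost wholly, and the log2 difference was -0.09 (95% interval -0.31 to 0.13, limma adjusted p = 0.722). Tfe3 had values of 7.93, 7.97, 8.43 and 7.69 in MHC-Plin5 hearts, against 7.90, 8.05, 8.0 and 7.86 in control hearts. Its highest and lowest hearts were both MHC-Plin5 hearts, and the difference was 0.05 (95% interval -0.26 to 0.37). Both factors are known to be controlled by their location in the cell, which transcript levels do not show.

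Among the autophagy receptors, Sqstm1 was the 1 called gene of 5. It encodes p62, which binds ubiquitin-tagged cargo and ATG8 proteins and is also a target of the antioxidant factor NRF2. Its values were 12.34, 12.72, 12.78 and 12.27 in MHC-Plin5 hearts, against 11.83, 11.83, 11.76 and 11.66 in control hearts. All MHC-Plin5 hearts were higher, hearts 2 and 3 most, and the gene was 1.69-fold higher (log2 difference 0.76, SE 0.13, limma adjusted p = 0.0108). The related receptors Nbr1 and Tax1bp1 differed by 0.04 (95% interval -0.16 to 0.23) and 0.06 (-0.24 to 0.36). The upper bounds of both intervals lie below the Sqstm1 difference.

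Neither mitophagy gene was called. Pink1, the kinase that marks damaged mitochondria for removal, had values of 10.96, 10.59, 10.44 and 11.22 in MHC-Plin5 hearts, against 11.24, 11.34, 11.41 and 11.15 in control hearts. MHC-Plin5 hearts 1, 2 and 3 were below every control heart and heart 4 was not, for a difference of -0.49 (SE 0.16, limma adjusted p = 0.137). Without MHC-Plin5 4 the difference was -0.62, and Pink1 was called. Leaving out that heart also raised the calls over all genes from 648 to 1174. Bnip3, a receptor in the outer mitochondrial membrane, differed by -0.20 (SE 0.16, limma adjusted p = 0.597), and by -0.37 without control 4 and -0.11 without control 2. A second row of Bnip3 gave 0.07 (SE 0.22), so its rows differ in sign and neither was called.

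The 4 ATG8 genes among the members did not move as a group. Gabarapl2, an ATG8 gene outside the members, differed by 0.04 (limma adjusted p = 0.875). Gabarapl1 had values of 11.40, 11.57, 11.52 and 11.21 in MHC-Plin5 hearts, against 10.81, 10.72, 10.74 and 10.87 in control hearts. It was 1.56-fold higher with no overlap (log2 difference 0.64, SE 0.10, limma adjusted p = 0.0086). Gabarap, its close relative, had values of 12.54, 12.62, 12.70 and 12.47 in MHC-Plin5 hearts, against 12.38, 12.53, 12.48 and 12.41 in control hearts, which overlap. Its difference was 0.13, and its 95% interval of -0.07 to 0.33 ends below the lower bound for Gabarapl1, 0.41.

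The LC3 genes, the other branch of the family, were not called. Map1lc3a had values of 11.17, 10.85, 10.40 and 11.43 in MHC-Plin5 hearts, against 11.29, 11.40, 11.40 and 11.27 in control hearts. The control hearts were tight (SD 0.07) and the MHC-Plin5 hearts were not (SD 0.44, n = 4 each). Hearts 1, 2 and 3 were below every control and heart 4 was above, for a difference of -0.38 (SE 0.18, limma adjusted p = 0.34). Map1lc3b, the form most used as an autophagy marker, had values of 11.56, 11.44, 11.55 and 11.64 in MHC-Plin5 hearts, against 11.57, 11.64, 11.59 and 11.50 in control hearts. The groups overlapped throughout, and the difference was -0.02 (95% interval -0.22 to 0.17), with -0.03 in a second row.

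In the core machinery, which starts and extends the autophagosome, 0 of 8 genes were called by limma, while 3 were higher and 1 lower at an unadjusted p under 0.05. Atg13, a scaffold of the initiating kinase complex, had values of 10.58, 11.02, 10.67 and 10.59 in MHC-Plin5 hearts, against 10.13, 10.34, 10.37 and 10.13 in control hearts. The groups did not overlap, and the difference was 0.47 (SE 0.12, limma adjusted p = 0.0629). Becn1, part of the lipid kinase complex that nucleates the membrane, had values of 8.90, 8.72, 8.89 and 8.97 in MHC-Plin5 hearts, against 8.55, 8.54, 8.62 and 8.44 in control hearts. It too had no overlap but was not called (0.34, SE 0.09, limma adjusted p = 0.089).

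Ulk1, the kinase that starts autophagy and binds Atg13, had values of 9.37, 8.76, 8.76 and 9.52 in MHC-Plin5 hearts, against 9.47, 9.58, 9.62 and 9.40 in control hearts. Hearts 2 and 3 were low while heart 4 lay among the controls, for a difference of -0.41 (SE 0.17, limma adjusted p = 0.251). Atg7, the activating enzyme of ATG8 lipidation, differed by 0.41 (SE 0.15, limma adjusted p = 0.185). The conjugation genes Atg5 and Atg12 differed by 0.05 and -0.06. Atg14, which steers the lipid kinase complex, differed by 0.03 and Wipi1, which binds its lipid product, by 0.13. For Atg5, Atg12 and Atg14 the 95% intervals lay within -0.30 to 0.28.

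The spread among hearts differed between the groups in these genes. The SD was larger among MHC-Plin5 hearts than among control hearts in 26 of the 37 genes and in 56.2% of all genes. In the 37 genes it had a median of 0.17 in MHC-Plin5 and 0.09 in control hearts. Over all genes these medians were 0.17 and 0.15, so the 37 genes matched all genes in MHC-Plin5 hearts and spread less in control hearts. Pink1, Map1lc3a, Ulk1 and Npc1 each had their highest MHC-Plin5 value in heart 4, and Sqstm1 and Gabarapl1 their lowest there. Over the 37 genes, heart 4 held the highest MHC-Plin5 value in 15 and the lowest in 11. Heart 4 also had the lowest Plin5 value of the group, 12.08, close to the 12.17 of heart 1. A link between the Plin5 level and these values was not tested. MHC-Plin5 4 has a raised array median as well, whose part in these values was not tested.

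**Figure D3:**
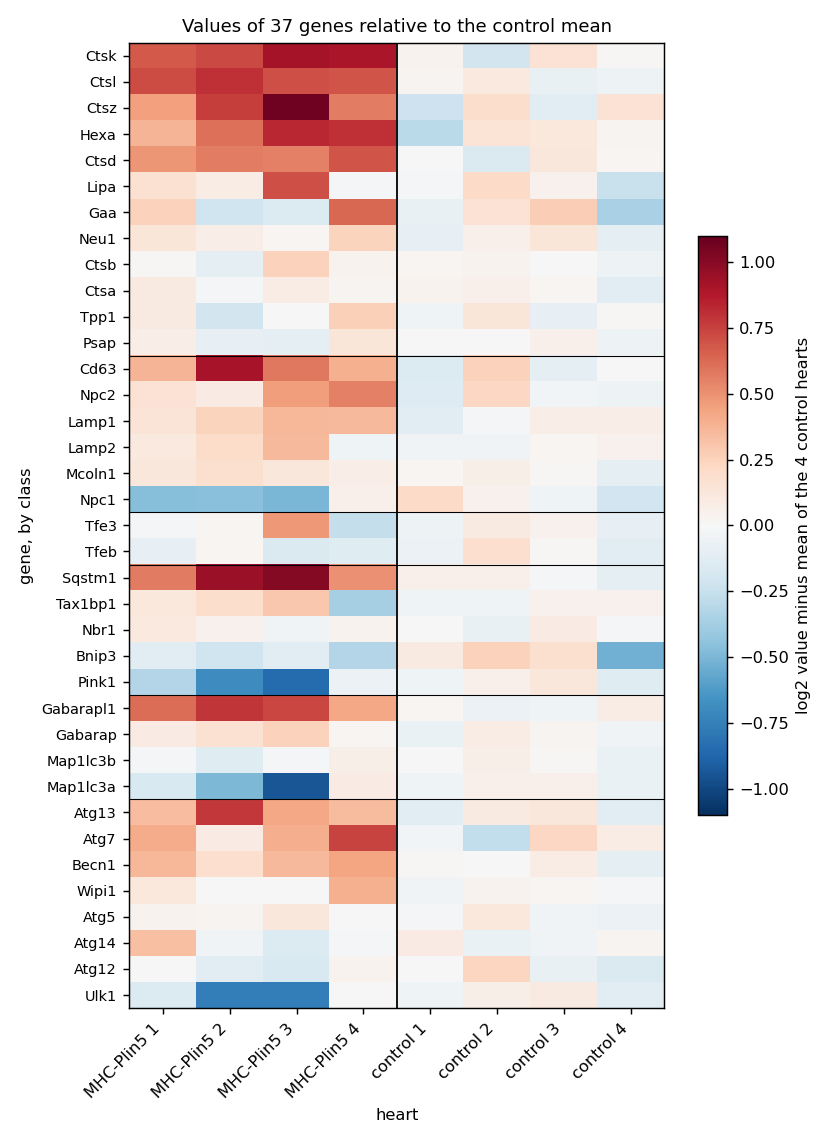
Log2 value of each of the 37 genes (rows, by class) in each heart (columns, MHC-Plin5 left of the black line, control right) minus the mean of the 4 control hearts. Ctsk, Ctsl, Ctsz, Hexa, Ctsd, Sqstm1 and Gabarapl1 are raised in all 4 MHC-Plin5 columns, while Pink1, Map1lc3a and Ulk1 are lowest in MHC-Plin5 2 and 3 and near the control mean in MHC-Plin5 4.

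Lysosomal proteases are abundant in macrophages, and Ctsk is also made by other connective tissue cells, so markers of these cells were read beside the hydrolases. All 17 macrophage markers had log2 differences above 0 (median 0.28) and 0 were called by limma, with 3 at an unadjusted p under 0.05. Their summed signal was 5882 to 9500 in MHC-Plin5 hearts and 5267 to 7713 in control hearts. Of 10 fibroblast markers 9 lay above 0 (median 0.28) and 0 were called, with 1 at an unadjusted p under 0.05. Their summed signal was 13292 to 19712 in MHC-Plin5 hearts and 12504 to 17110 in control hearts. RMA values have no true zero, so no marker can be read as absent.

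The hearts differed in these markers. The mean macrophage value relative to the control mean was 0.00, 0.02, 0.64 and 0.45 in MHC-Plin5 hearts 1 to 4, against -0.22, 0.24, -0.06 and 0.03 in control hearts 1 to 4. The mean over the 12 hydrolases was 0.29, 0.25, 0.41 and 0.41 in MHC-Plin5 hearts, against -0.05, 0.06, 0.05 and -0.06 in control hearts. MHC-Plin5 hearts 1 and 2 lay within the control range for macrophage markers and above every control heart for the hydrolase mean. That mean holds 5 called genes with differences of 0.58 to 0.80 and 7 others of at most 0.23, and the median difference of the 12 was 0.18, below the 0.28 of the macrophage markers. The fibroblast mean was -0.13, 0.18, 0.63 and 0.35 in MHC-Plin5 hearts, against -0.24, 0.13, -0.17 and 0.28 in control hearts. The part of these cells in the hydrolase differences was not tested. Among the called hydrolases, Ctsz, Hexa and Ctsk were highest in MHC-Plin5 3, Ctsd in MHC-Plin5 4 and Ctsl in MHC-Plin5 2. Hexa and Ctsk were nearly as high in MHC-Plin5 4, at 10.56 and 7.05, as in MHC-Plin5 3, at 10.58 and 7.07.

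The cardiomyocyte markers, 10 in all, had a median difference of -0.11 and 0 calls by limma, with 2 at an unadjusted p under 0.05. Their summed signal was 106940 to 125395 in MHC-Plin5 hearts and 122307 to 126358 in control hearts. Endothelial markers had a median of -0.03 over 8 genes and lymphocyte markers -0.13 over 7, with 0 calls each and 0 and 1 genes at an unadjusted p under 0.05. Of 7 markers of vessel wall cells 4 lay above 0 (median 0.04). In this list 1 was called lower, the potassium channel gene Kcnj8 (-0.43, limma adjusted p = 0.0377). Its summed signal was 5977 to 13676 in MHC-Plin5 hearts and 6900 to 8220 in control hearts. The 13676 of MHC-Plin5 3 stood apart. The summed signal of 4 adipocyte markers was 178 to 270 in MHC-Plin5 hearts and 177 to 846 in control hearts, and the 846 of control 4 stood apart.

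**Figure D4:**
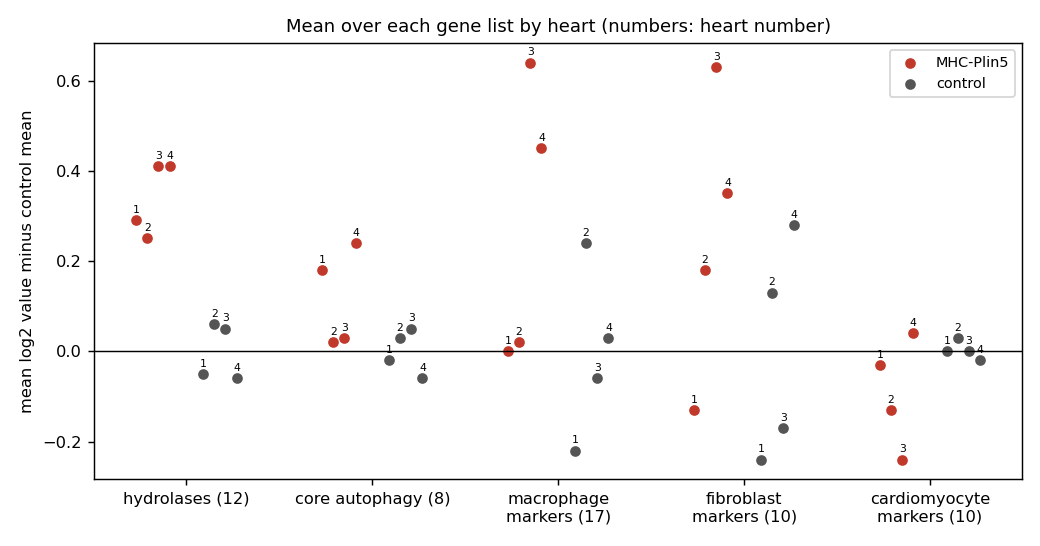
Mean log2 value over each gene list relative to the control mean (vertical axis) in each MHC-Plin5 heart (red, left) and control heart (grey, right), with heart numbers beside the points. The hydrolase means of all MHC-Plin5 hearts, 0.25 to 0.41, lie above those of all control hearts, -0.06 to 0.06, and the macrophage and fibroblast means overlap between the groups. The hydrolase mean holds 5 called genes, whose groups do not overlap. The median difference was 0.18 over the hydrolases and 0.28 over the macrophage and over the fibroblast markers. The part of these cells in the hydrolase means was not tested.

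A further 152 measured genes of the same pathways, in 5 lists, were read with the same test, and 9 were higher and 1 lower, where 2.08% of all genes were higher and 1.17% lower. Among 48 other lysosomal genes 2 were higher and 0 lower, a share of 4.17% called that lies near the 3.25% of all genes. Galc, which removes galactose from myelin-type lipids, had values of 7.63, 7.61, 7.90 and 7.29 in MHC-Plin5 hearts, against 6.75, 6.61, 6.95 and 6.91 in control hearts. It was 1.74-fold higher with no overlap (log2 difference 0.80, SE 0.14, limma adjusted p = 0.0108). Gnptab, which builds the mannose phosphate tag that sends hydrolases to lysosomes, was 1.38-fold higher (0.46, SE 0.09, limma adjusted p = 0.025). The median over this list was 0.05, close to the -0.03 of all genes.

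In the proton pump that acidifies lysosomes 2 of 16 subunit genes were higher and 0 lower (12.5% called). Atp6v1h, a regulatory subunit of the cytosolic part, had values of 8.57, 9.19, 9.14 and 8.21 in MHC-Plin5 hearts, against 7.86, 7.77, 7.72 and 8.02 in control hearts. Hearts 2 and 3 were high and heart 4 only just above the controls, for a 1.91-fold rise (0.94, SE 0.20, limma adjusted p = 0.0299). Atp6v0e, a small membrane subunit, was 1.40-fold higher (0.49, SE 0.10, limma adjusted p = 0.0268). The 16 subunits had a median difference of 0.20, with 13 above 0 (81.2%, against 42.5% of all genes). At an unadjusted limma p under 0.05, 7 were higher and 0 lower, where 8.69% of all genes were higher.

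Of 40 other genes of autophagosome formation and fusion 1 was higher, the membrane fusion protein Ykt6 (0.41, SE 0.10, limma adjusted p = 0.0438), and 0 were lower. Of 21 other genes of selective autophagy 1 was higher and 0 lower. The shares called, 2.5% and 4.76%, lie near the 3.25% of all genes. The called gene of selective autophagy was Stbd1, a protein that binds glycogen and tethers it to GABARAPL1. Its values were 6.74, 7.19, 7.76 and 6.48 in MHC-Plin5 hearts, against 5.39, 5.55, 5.60 and 5.46 in control hearts. The groups were 0.88 apart at their nearest hearts, and Stbd1 was 2.91-fold higher (1.54, SE 0.23, limma adjusted p = 0.0046), beside a Gaa difference of 0.13.

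Among 27 genes of nutrient sensing and upstream control 3 were higher and 1 lower (14.8% called, against 3.25% of all genes). Deptor, an inhibitory partner of the kinase mTOR, had values of 9.13, 9.29, 9.33 and 8.92 in MHC-Plin5 hearts, against 8.34, 8.30, 8.28 and 8.16 in control hearts. It was 1.86-fold higher, without overlap (0.90, SE 0.11, limma adjusted p = 0.00181). Fnip2, a partner of folliculin at the lysosome, was 1.67-fold higher (0.74, SE 0.15, limma adjusted p = 0.0262) and Rragc, a GTPase that brings mTOR to the lysosome, 1.37-fold higher (0.46, SE 0.11, limma adjusted p = 0.046). Mitf, the third lysosomal factor beside Tfeb and Tfe3, was the lower gene. Its values were 9.23, 9.02, 8.68 and 9.50 in MHC-Plin5 hearts, against 9.92, 9.83, 9.80 and 9.68 in control hearts. All MHC-Plin5 hearts were below all control hearts, for a level 1.62-fold lower in MHC-Plin5 hearts (-0.70, SE 0.16, limma adjusted p = 0.0362). The call of Mitf ended when the rows of each gene were averaged in place of keeping the brightest. It also ended with the heart number as a block (limma adjusted p = 0.0543). Tfec, the remaining member of the family, differed by 0.32 (SE 0.13, limma adjusted p = 0.217).

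Of these 10 calls, those of Galc, Stbd1 and Deptor held without each of the 8 hearts in turn. Leaving out 1 heart ended the call of Mitf in 6 cases, and those of Fnip2, Atp6v0e, Atp6v1h, Gnptab, Rragc and Ykt6 in 5, 5, 6, 7, 7 and 8 cases. The differences kept their sign each time, at -0.83 to -0.56 for Mitf, 0.61 to 0.83 for Fnip2, 0.44 to 0.53 for Atp6v0e and 0.80 to 1.12 for Atp6v1h. They were 0.43 to 0.50 for Gnptab, 0.41 to 0.54 for Rragc and 0.36 to 0.45 for Ykt6. The count of higher genes was 5 without MHC-Plin5 1, 4 without MHC-Plin5 2 or 3 and 11 without MHC-Plin5 4. It was 3 without control 1, 3 or 4 and 4 without control 2. Over all genes, in either direction, 648 were called with all hearts. Without MHC-Plin5 2 or 3 or any 1 control heart these calls numbered 233 to 344. They numbered 681 without MHC-Plin5 1 and 1174 without MHC-Plin5 4.

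**Figure D5:**
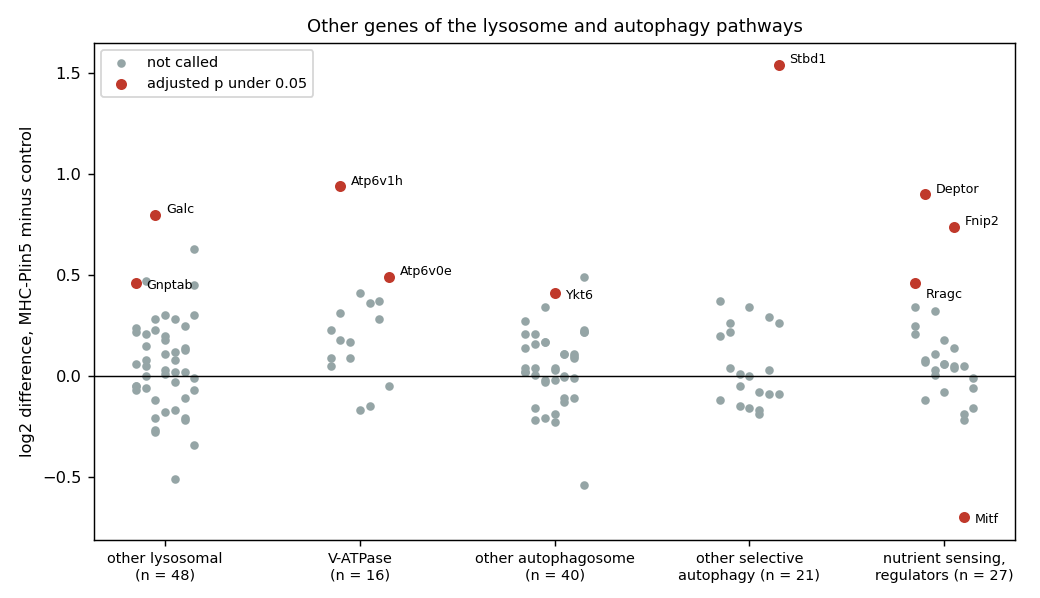
Log2 difference, MHC-Plin5 minus control (vertical axis), of 152 further genes in 5 lists, 1 point per gene, with called genes in red and named. Stbd1 lies highest at 1.54 and Mitf lowest at -0.70, and the V-ATPase subunits have a median of 0.20.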

How the data were processed

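The deposited log2 values came from RMA and Affymetrix Expression Console, tools that the submitters' processing notes name without version or settings. RMA corrects background, equalises the arrays' distributions and summarises probes, which can shrink small differences. The table has 35556 rows with values of 2.02 to 14.66. GEO's platform annotation gives 1 symbol to 21789 rows, several to 1621 and none to 12146, and only rows with 1 symbol were used. Probe sets can share signal between close relatives, and no scanner file, scan date or slide was used here, so no batch was tested. Nothing in the sources says that a heart number pairs hearts across groups. Each heart was counted as 1 mouse, since the design text lists 4 mice a group. Every column was matched to a heart.

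All genes were fitted with lmFit and eBayes of limma 3.58.1 (R 4.3.3, no intensity trend, not robust), genotype being the only term, two-sided, with Benjamini-Hochberg adjustment across the 19938 genes. Differences are MHC-Plin5 minus control in log2 units. Intervals are unadjusted 95% intervals. The fit was tested on simulated data with independent normal noise, which cannot speak to shifts of a whole array. Alternatives changed the filter on dim genes (mean of at least 5 or 7), the normalization, the variance model, array weights, the choice of row, the block, the hearts included or the threshold. Summed signals add 2 to the power of each log2 value. A listed symbol without a row was sought among the synonyms of RefSeq (GRCm38.p6), which named 1 gene, Retreg1. Members, gene lists and motifs were chosen with earlier results of these data known, so lists were described by counts and medians and were given no test. All members are named. The value of every heart is given for called members, for members without overlap and for members of the TFEB and ATG8 families. It is also given for Lipa, Npc1, Pink1 and Ulk1, which, like Myh6, Tfec and Gabarapl2, were chosen after their values were seen. Of the other lists the called genes are named, up to 6 each. Python 3.11.15 and pandas 2.3.3 prepared tables, and matplotlib 3.10.9 the plots.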

Additional observations from a re-analysis of the deposited data

Results flagged for a closer look

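Npc1 in MHC-Plin5 4 stood at 9.79, far from the 9.23 to 9.27 of the other MHC-Plin5 hearts. It was the 1 heart set apart by Dixon's test among 96 groups of 4 hearts, where chance alone sets apart about 1 group in 20.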

How the results depend on the processing

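Ctsk, Ctsl, Ctsd, Sqstm1 and Gabarapl1 kept an adjusted p under 0.05 in every other fit that tested them, the highest being 0.0434. The filter at a mean of 7 did not test Ctsk. The call of Ctsz ended in 5 of 18 alternatives and that of Hexa in 6, each time with 1 heart left out, except that the call of Hexa also ended without both hearts of the highest array medians. At a threshold of 0.01, 3 genes were called higher, Ctsl, Ctsk and Gabarapl1. Cd63 was called in 10 of 18 alternatives, among them both further normalizations, both trend fits and array weights, and Atg13 in 5. With array weights 1 gene was called lower, and with single hearts left out 0 to 2. Over all genes, in either direction, 1625 were called with array weights and 233 to 1174 with single hearts left out, against 648 in the main fit. The median difference over the 37 genes kept its sign throughout.

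In the other lists the higher calls numbered 16 with array weights, 2 at an adjusted p under 0.01 and 3 to 11 with single hearts left out. The lower calls numbered 2 with a filter at a mean of 7, after quantile normalization or without both hearts of the highest array medians, 3 with array weights, and 0 with the mean over rows or at an adjusted p under 0.01. With single hearts left out they numbered 0 to 2. Calls over all genes, in either direction, moved as well. They numbered 648 in the main fit, 1625 with array weights and 233 to 1174 with single hearts left out. With the filter at 7, quantile normalization, the mean over rows or both bright hearts left out they numbered 651 to 787. The cause of these shifts was not tested.

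Signs changed only in differences near 0, none of them called. With array weights the Gaa difference was -0.01 and the Tpp1 difference -0.003, and the Psap difference was 0.07 after quantile normalization and 0.01 after median centring. With single hearts left out Ctsb ran over -0.01 to 0.10, Gaa -0.04 to 0.24, Tpp1 -0.03 to 0.12, Psap -0.04 to 0.04, Tfe3 -0.09 to 0.15, Tax1bp1 -0.02 to 0.20, Map1lc3b -0.06 to 0.01, Atg12 -0.12 to 0.01 and Atg14 -0.07 to 0.09.

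Hearts of the same number correlated at 0.19, 0.03, -0.11 and -0.04 in their deviations from the group means, and the numbers were not taken as pairs. With the heart number as a replicate block, the 7 called genes were still called and Cd63 was called as well. In the other lists the block left 4 higher and 0 lower calls, while over all genes it left 507 calls, against 648 without it. Having 4 arrays a group limits precision, and no detection level was used here for dim genes such as Ctsk.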
